A study of Ovis aries with 18 samples.

Results

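The miR-193 and miR-365 rows are the entries of the deposited miRNA tables that are listed with the seed of miR-193a, miR-193b or miR-365. A seed is the short stretch near the 5' end of a miRNA that pairs with its target messenger RNAs. The rule found 3 of 495 rows in uterine lumen extracellular vesicles and the same 3 of 761 rows in endometrium. The row 24_21619 is listed with the seed of bovine miR-193a-3p, and the rows 24_21621 and 11_5450 with that of bovine miR-365-3p. The last 2 rows have identical values in every vesicle library, so they are one signal and are described once. No row is listed under miR-193b or under the 5p arm of either miRNA. A shared seed is not an identity: miR-193b has the same seed as miR-193a, and 24_21619 may be either. The first part of an identifier is taken here as the chromosome, and the tables give no coordinates.

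All ewes (Ovis aries) were ovariectomized, and every one received progesterone (P4). In the P4+RU486 group, 50 mg of P4 was injected daily for 7 days, and P4 together with 50 mg of RU486 from day 8 to day 14. In the P4 group, 50 mg of P4 was injected daily for 14 days. RU486 (mifepristone) blocks the progesterone receptor, and the comparison asks which miRNAs differ when RU486 is given while P4 is present. The design does not separate effects through that receptor from any other effect of RU486. There were 5 ewes per treatment, and no group without P4 is analysed here. Small RNA of vesicles was sequenced in 4 libraries per treatment, named R01 to R04 (P4+RU486) and P01 to P04 (P4), and that of endometrium in 5 per treatment. Vesicles came from a 10 ml flush of the uterine lumen that had passed a 0.22 µm filter, and the libraries of one kind come from separate ewes.

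In mammals, miR-193 and miR-365 are encoded side by side and cut from a common primary transcript. The human genome holds a pair of such clusters on different chromosomes, one with miR-193b and one with miR-193a, and both give the same mature miR-365-3p. Reads of miR-365-3p therefore cannot be assigned to one cluster. In human cells, miR-193a and miR-193b restrain growth genes such as the receptor KIT and the survival factor MCL1, and miR-193b represses estrogen receptor alpha in breast cancer cells. In cultured mouse cells the miR-193b and miR-365 cluster promotes brown fat differentiation. In chondrocytes, miR-365 acts on the histone deacetylase HDAC4. In the tables, 24_21619 and 24_21621 carry neighbouring locus numbers, as a cluster would, whereas 11_5450 has no partner with a miR-193 seed among the rows numbered on chromosome 11. The nearest other row by number in the vesicle table, 11_5433 with the seed of murine miR-7064-5p, lies 17 numbers away. In the endometrium table the row 11_5466, with the seed of murine miR-3552, lies 16 numbers away, and the authors' deposited table gives it a fold of -13.44 (adjusted p = 0.096), with the numerator not stated.

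Vesicle values are normalized CPM (counts scaled to an adjusted library size), from which whole reads could be recovered. The libraries held 101186 to 328453 reads in listed rows in P4+RU486 and 97202 to 1062646 in P4. One read was worth 3.13 to 10.4 normalized CPM in P4+RU486 and 1.10 to 9.54 in P4. R04, P01 and P04 had the fewest reads. A count of 0 allows up to 3 reads (a 1-sided 95% limit), a floor worth 9.39 to 31.3 normalized CPM in P4+RU486 and 3.30 to 28.6 in P4. Intervals and floors cover counting error only, since such reads carry no molecular identifiers and may be copies of one molecule.

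The miR-365 signal was low in vesicles and lay lower in every P4+RU486 library than in any P4 library. In P4+RU486 its value was 12.9 normalized CPM in R01, 9.39 in R02, 14.3 in R03 and 0 in R04. In P4 it was 47.1 in P01, 24.3 in P02, 36.3 in P03 and 47.7 in P04. The highest P4+RU486 library, R03, stood below the lowest P4 library, P02. The treatment means were 9.17 ± 6.46 normalized CPM in P4+RU486 and 38.9 ± 11.02 in P4 (SD, n = 4 each), a mean 4.24-fold lower in P4+RU486. With the 0 of R04 set to its floor of 3 reads, it was 2.29-fold lower. In bulk vesicle RNA, fewer vesicles of one source and fewer copies in each vesicle cannot be told apart.

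These values rest on few reads. R01, R02 and R03 had 3 reads each and R04 had 0, while P01 had 6, P02 had 13, P03 had 33 and P04 had 5. Exact Poisson 95% intervals (2-sided, so wider than the floor for a count of 0) ran from 2.67 to 37.8 normalized CPM in R01, from 1.94 to 27.5 in R02, from 2.96 to 41.9 in R03 and from 0 to 38.5 in R04. Each of these upper bounds lies above the value of P02. In P4 the lower bounds were 17.3 in P01, 13.0 in P02, 24.96 in P03 and 15.5 in P04, of which that of P02 alone lies below the value of R03. Summed over libraries, the row held 9 of 879528 reads in listed rows in P4+RU486 and 57 of 1829232 in P4. That is 10.2 and 31.2 CPM of these totals, in which rows with identical values were each counted. P03 alone gave 33 of the 57 reads.

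**Figure D1:**
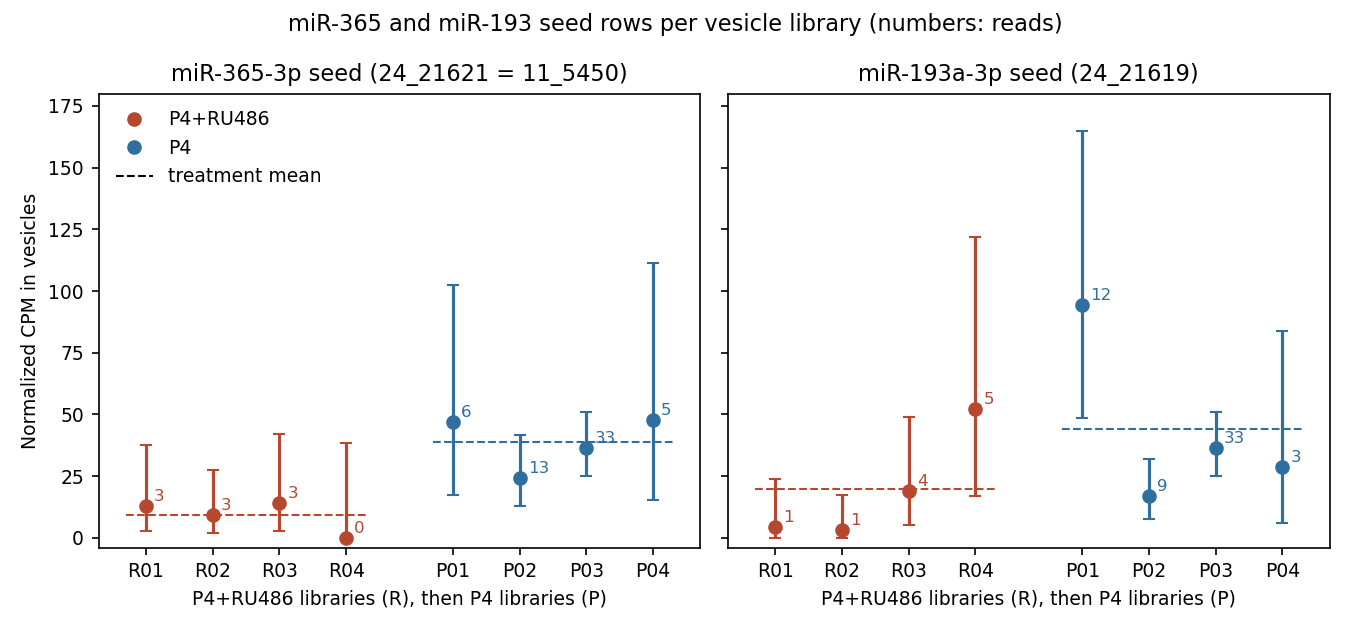
Normalized CPM (vertical axis) of the miR-365 signal (left) and the miR-193 row (right) in each vesicle library, P4+RU486 in red and P4 in blue, with exact Poisson 95% intervals as bars, reads as numbers and treatment means as dashed lines. The miR-365 points of P4+RU486 lie between 0 and 14.3 and those of P4 between 24.3 and 47.7, while the miR-193 points of the treatments overlap because R04 lies at 52.2.

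The miR-365 difference did not pass the test across all rows. On the log2(value + 1) scale it was -2.49 (SE 0.91, 95% interval -4.46 to -0.52, P4+RU486 minus P4), with an unadjusted limma p of 0.0176 and an adjusted p of 0.285 over 229 rows. The exact permutation test over the 8 libraries (2-sided) gave p = 0.0286, the smallest that 4 libraries against 4 can give, for a signal lower in 4 of 4 P4+RU486 libraries. R04, with no read, carries much of the log2 value: without it the difference was -1.56 (SE 0.57, limma adjusted p = 0.321). Without R04, P01 and P04 it was -1.24 (SE 0.61, limma adjusted p = 0.356).

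The miR-193 row, 24_21619, also averaged lower in P4+RU486, but its libraries overlapped. In P4+RU486 it was at 4.31 normalized CPM in R01 (1 read), 3.13 in R02 (1 read), 19.1 in R03 (4 reads) and 52.2 in R04 (5 reads). In P4 it was at 94.3 in P01 (12 reads), 16.9 in P02 (9 reads), 36.3 in P03 (33 reads) and 28.6 in P04 (3 reads). R04 lay above 3 of the 4 P4 libraries, and R03 lay above P02, whereas R01 and R02 lay below all of P4. The means were 19.7 ± 22.9 normalized CPM in P4+RU486 and 44.0 ± 34.5 in P4 (SD, n = 4 each), a mean 2.23-fold lower in P4+RU486 and a gap smaller than the SD of P4.

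The log2 difference of 24_21619 was -1.58 (SE 0.89, 95% interval -3.51 to 0.35, limma adjusted p = 0.456, unadjusted 0.0996). Its exact permutation p was 0.2. Left out singly, R04 moved the estimate farthest from 0, to -2.28 (SE 0.83, limma adjusted p = 0.321), and R02 brought it nearest to 0, to -1.05 (SE 0.87, limma adjusted p = 0.653). Pooled over libraries, the row held 11 reads in P4+RU486 and 57 in P4, or 12.5 and 31.2 CPM of the totals of listed rows. P03 alone gave 33 of those 57. In R04 the exact Poisson interval ran from 16.9 to 121.8 normalized CPM and in P01 from 48.7 to 164.7.

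The miR-193 row and the miR-365 signal did not keep one proportion across libraries. The ratio of miR-193 to miR-365 reads was 0.333 in R01 and R02 and 1.33 in R03, and in R04 there were 5 reads against 0. In P4 it was 2 in P01, 0.692 in P02, 1 in P03 and 0.6 in P04. Over the 8 libraries Pearson's r between their log2(value + 1) was 0.08 and Spearman's rho 0.38, given as a description of points with a median of 4.5 and 4 reads. By this r, the miR-193 row ranked 100 of 218 among the rows compared with the miR-365 signal. Their summed value was 28.9 ± 17.96 normalized CPM in P4+RU486 (12.5 to 52.2) and 82.9 ± 42.1 in P4 (41.2 to 141.4; SD, n = 4 each), so that R04 overlapped with P02.

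Against all rows tested, the members stood low in level and had SEs above the median. Their means over the 8 libraries, 24.01 for miR-365 and 31.8 for miR-193, ranked 174 and 166 of 495 rows. Rows were tested by their mean, so these are also the ranks among the 229 tested. The median SE on the log2 scale was 0.51 over all rows tested. It was 0.95 over the 80 rows with a mean of 10 to under 50, and 0.35 over those at 50 or more. The SEs of miR-365 (0.91) and miR-193 (0.89) were thus usual for their level. No tested row had a lower estimate than the 2 identical miR-365 rows, and 1 row with a positive estimate was larger in size. Of all 229 rows, 111 (48.5%) had an estimate below 0, and the median difference was 0.04.

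Of the 3 member rows, 0 passed limma at an adjusted p of 0.05, where 0.437% of all rows tested passed (1 row, miR-99a, which was lower in P4+RU486). The miR-365 rows are identical, so they count as 1 signal and not as separate support. That signal, and not the miR-193 row, had an unadjusted limma p under 0.05 with a lower value in P4+RU486, against 6.99% of rows. The treatments' libraries did not overlap, with P4+RU486 lower, in the miR-365 signal, against 5.24% of rows. With edgeR's quasi-likelihood test on the recovered reads 0 of 3 passed, against 0.437% of rows, and with DESeq2 0 of 3 passed, against 1.75%. The adjusted p-values of miR-365 were 0.272 with edgeR and 0.246 with DESeq2, and those of miR-193 were 0.535 and 0.580.

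**Figure D2:**
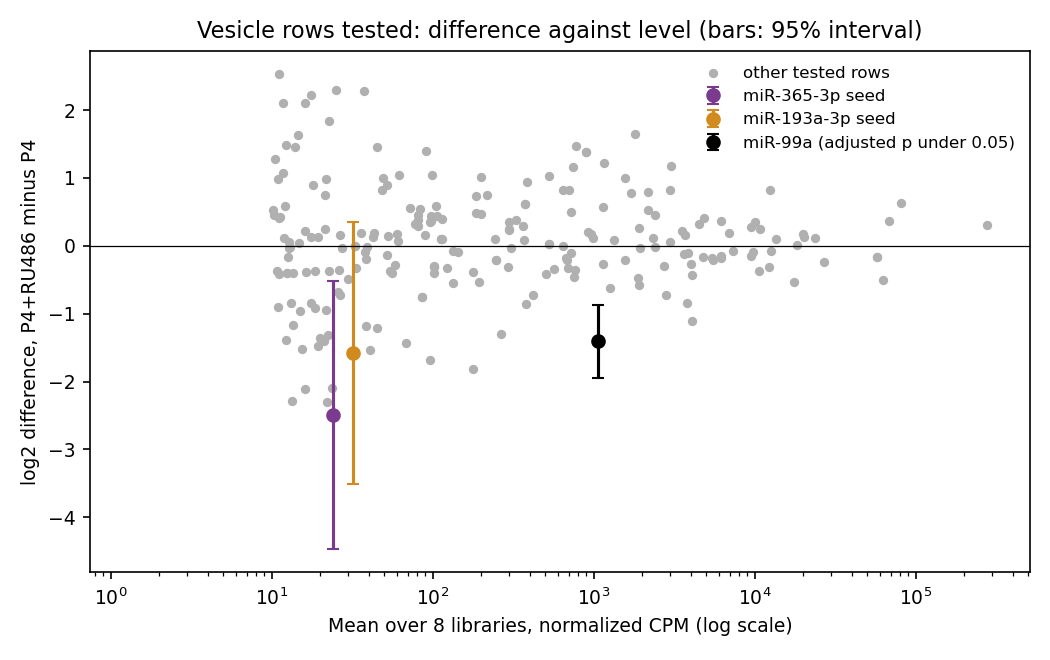
Log2 difference, P4+RU486 minus P4 (vertical axis), against the mean over 8 vesicle libraries in normalized CPM (horizontal log axis) for the 229 rows tested, with 95% intervals for the named rows. The miR-365 signal at -2.49 and the miR-193 row at -1.58 lie among the low rows, where estimates spread widely, and miR-99a at a mean of 1063 is the row with an adjusted p under 0.05.

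The authors' deposited vesicle table calls all 3 member rows. Its folds are signed. A positive sign goes with a higher P4 mean, and a negative sign with a higher P4+RU486 mean, in all 9 rows it calls and in 444 of 495 rows overall. The authors' deposited table lists 24_21621 and 11_5450 at a fold of 3.17 (adjusted p = 0.02). For 24_21619 the authors' deposited table has a fold of 3.1 (adjusted p = 0.03). Calls (an adjusted p under 0.05 in the authors' deposited table) cover 1.82% of vesicle rows (9 of 495), and calls higher in P4 cover 1.21% (6 rows). The members were chosen with these calls known, so their share is not evidence about them. The 9 called rows, members included, had means of 22.1 to 48.9 normalized CPM and medians of 3.5 to 9 reads, and 149 rows had a higher mean than any of them. Their limma adjusted p-values ran from 0.285 to 0.631.

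The endometrium gave no call for these rows. In the authors' deposited table for endometrium, 24_21619 has a fold of -1.04 (adjusted p = 0.985), and 24_21621 and 11_5450 a fold of 1.02 (adjusted p = 0.989). Which treatment is the numerator is not stated there, so the sign gives no direction. A fold of at most 1.02 in size was held by 7.23% of the 761 rows and one of at most 1.04 by 12.9%, where the median size was 1.25. Calls there cover 1.18% of rows (9 of 761). None of the 9 rows called in the authors' deposited vesicle table was called there. The difference between vesicles and endometrium was not tested, and values of single endometrium libraries are not analysed here.

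**Figure D3:**
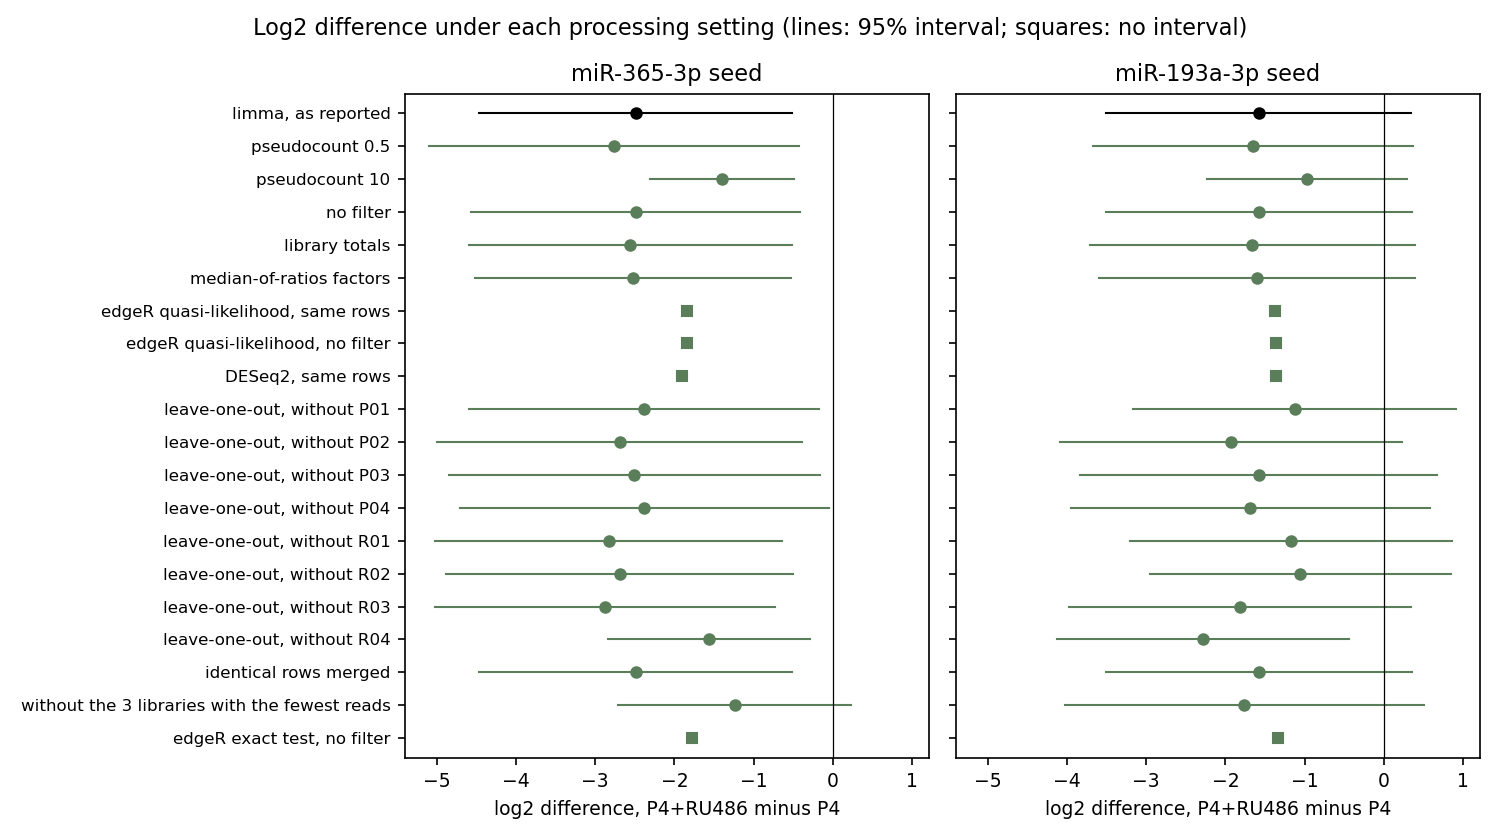
Log2 difference, P4+RU486 minus P4 (horizontal axis), of the miR-365 signal (left) and the miR-193 row (right) under each processing setting (rows), with 95% intervals as lines and squares for tests without one. All estimates lie below 0, from -2.88 to -1.24 for miR-365 and from -2.28 to -0.97 for miR-193.

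The rows whose pattern over the 8 vesicle libraries was most like the miR-365 signal were found by Pearson's r of log2(value + 1). The nearest of 218 was miR-125b, a regulator of differentiation and apoptosis genes (r = 0.95, rho 0.86), at 3433, 2752, 3242 and 1608 normalized CPM in R01 to R04 and 5979, 3407, 5271 and 4732 in P01 to P04. Like the miR-365 signal, miR-125b was lowest in R04, and its median was 778.5 reads. Its log2 difference was -0.84 (SE 0.29, limma adjusted p = 0.285). Next came 3_26586 with the seed of murine miR-615-3p (r = 0.93), miR-218a (0.81), miR-30c (0.79) and 2_15715 with the seed of bovine miR-2284g (0.79). Of these, 3_26586, miR-218a and 2_15715 had medians of 3 to 6 reads and, as with miR-365, 0 reads in R04. That shared 0 weighs in each r.

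For the miR-193 row the nearest was 2_15291, with the seed of bovine miR-320a (r = 0.81, rho 0.79), at a mean of 2475 normalized CPM in P4+RU486 and 2974 in P4. Then followed 25_23019 with the miR-1296 seed (r = 0.75), 22_20183 with no listed seed (0.75), 15_10599 with the seed of human miR-4743-3p (0.74) and let-7c, a let-7 family member that holds back growth genes (0.74). None of these 5 passed the limma test (adjusted p from 0.704 to 0.814). The lists of nearest rows of miR-365 and miR-193 share no row.

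**Figure D4:**
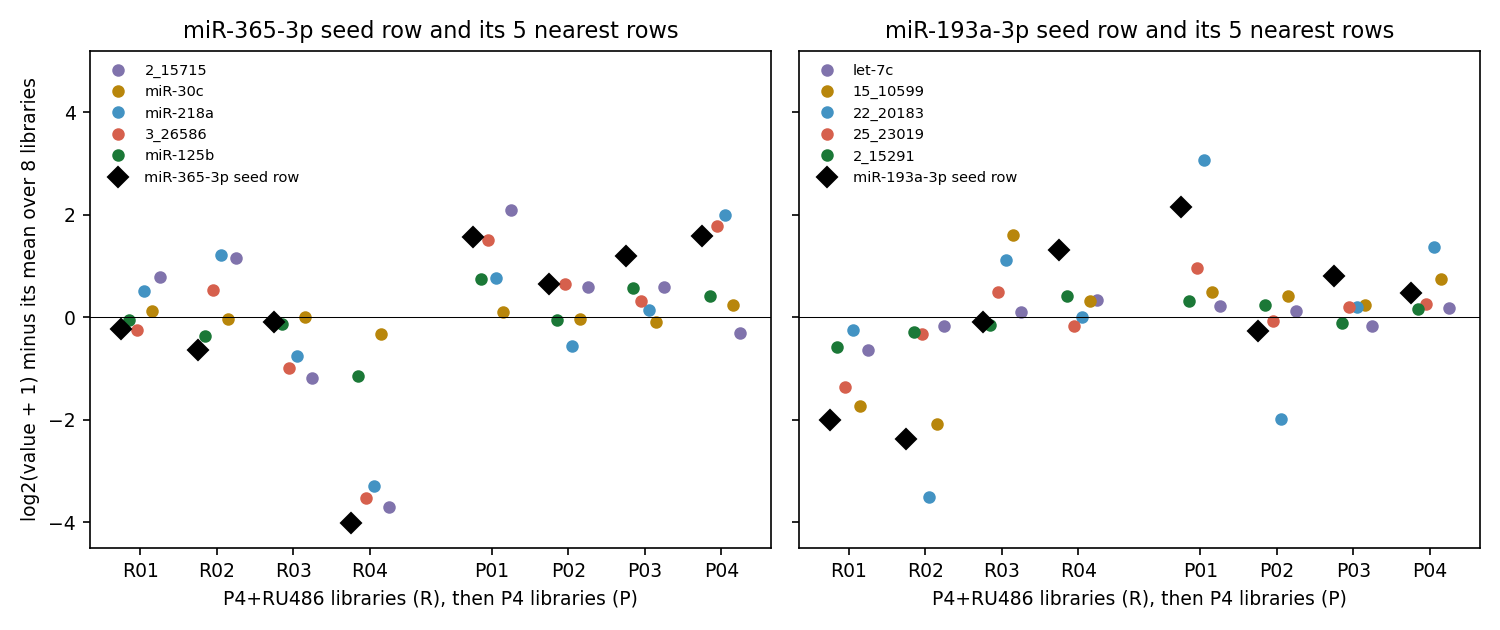
Log2(value + 1) minus its mean over the 8 libraries (vertical axis) for the miR-365 signal (left) and the miR-193 row (right) as black diamonds, with the 5 rows most like each as coloured points, by library. On the left, R04 is the lowest library for all 6 rows shown, and on the right R01 and R02 lie at or near the low end, with 22_20183 near the mean in R01.

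Other miRNAs with the roles known for miR-193 and miR-365 did not pass the limma test. In this and the later lists a miRNA was matched by its name or by the listed seed name. One that shares a seed with a listed row may therefore count as absent. Among 7 other miRNAs reported to target the estrogen receptor alpha transcript in human breast cancer cells, 4 had a row by this match, and 3 rows were tested. None of the 3 passed in either direction, and 3 of 3 estimates were below 0, with a median of -0.62 (0.04 over all rows). These were X_36142, with the miR-221 seed, at 2120 ± 302 normalized CPM in P4+RU486 and 3539 ± 822 in P4 (SD, n = 4 each), with a difference of -0.72 on the log2 scale (SE 0.25, limma adjusted p = 0.285), miR-221 itself at -0.62 (SE 0.26) and miR-22 at -0.08 (SE 0.23). The first 2 are also the tested rows of the list for KIT, which miR-221 and miR-222 are known to repress (0 of 2 passed, median -0.67).

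Of 5 miRNAs enriched in brown fat, 3 had a row, and of their 5 rows 3 reached the mean of 10. In these 3, rows of miR-378 and miR-196a seeds, 0 passed and 1 estimate was below 0, with a median of 0.40. The row of miR-455-3p by seed, 2_16583, had a mean of 8.58 and was not tested. It was at 4.31, 0, 4.78 and 0 normalized CPM in R01 to R04 (2 reads in all) and at 15.7, 11.2, 23.1 and 9.54 in P01 to P04 (30 reads). Its libraries did not overlap between treatments, with P4+RU486 lower, as in 5.24% of the rows tested. That rests on few reads: P04 had 1 and P01 had 2, and the 0 of R04 allows up to 31.3 normalized CPM. The authors' deposited table gives it a fold of 6.02 (adjusted p = 0.18). The most abundant, 5_29575 with the seed of miR-378, a regulator of mitochondrial metabolism, was at 5816 ± 966 normalized CPM in P4+RU486 and 6527 ± 1532 in P4 (SD, n = 4 each). The row 3_26587, with the seed of the HOX-cluster miRNA miR-196a, differed by 0.40 (SE 0.51) and 11_5825, also with the miR-378 seed, by 0.75 (SE 0.63). Of these lists, 0 rows were called in vesicles and 0 in endometrium in the authors' deposited tables.

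Markers of cells that could shed vesicles into the lumen were read beside these values. Of 5 epithelial miRNAs 3 had rows, all of the miR-200 family, with a sum of 10482 to 15999 normalized CPM in P4+RU486 and 7118 to 30229 in P4. Of 5 leukocyte miRNAs 4 had rows, with a sum of 2286 to 5094 in P4+RU486 and 2512 to 14818 in P4. P01, the library with the highest miR-193 value, was the one at 14818, and the other P4 libraries reached at most 5323. Most of that sum in P01 was miR-150, at 13655. The row with the miR-342 seed was also highest in P01, at 935. That with the miR-155 seed was not (180.7 in P01, 265.8 in P02), nor was 11_5329 with the miR-142b seed (47.1 in P01, 86.3 in R01). P01 was also highest in the sum of the stromal rows (miR-199a and miR-214), at 848.5. The other sums were 135.7 to 592.9 in P4+RU486 and 83.5 to 305.3 in the other P4 libraries. All of the P01 value came from miR-199a, as the miR-214 row was at 0 there. The part of these cells in the miR-193 value of P01 was not tested; without P01 the miR-193 difference was -1.13 (SE 0.93) and the miR-365 difference -2.38 (SE 1.01).

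The list used here for smooth muscle holds miR-1, miR-133a, miR-143 and miR-145. Of these 4, 2 matched rows (miR-143 and miR-145), with a sum of 9730 to 14935 in P4+RU486 and 10828 to 16531 in P4. A row named miR-133, without the letter of the listed miR-133a, was left out of that sum. It was at 17.3, 6.26, 9.56 and 10.4 normalized CPM in R01 to R04 (1 to 4 reads). In P01 to P04 it was at 39.3, 18.7, 20.9 and 38.2 (4 to 19 reads). Its treatments did not overlap, with P4+RU486 lower, as in 5.24% of rows tested. Of 3 erythroid miRNAs only miR-486 had a row by seed, at 1848 to 5427 in P4+RU486 and 281 to 7365 in P4. The endothelial miR-126 and the hepatic miR-122 matched no row. None of these marker rows passed the limma test. Of them, 1 is called in the authors' deposited vesicle table, 11_5329 with the miR-142b seed, at a fold of -3.69, opposite in sign to that of the miR-193 and miR-365 rows.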

How the data were processed

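The members, lists and tests were chosen with earlier results of these data known. Per the submitters' processing notes, the authors trimmed adapters with cutadapt 1.11, used sheep build Oar_v3.1 and ran edgeR. The aligner, the locus caller and the filters have not been given in the sources used here. The deposited vesicle values hold a normalized signal, and 100% of values in each column were whole multiples of 1 read (tolerance 0.1). The worth of 1 read equalled 1e6 divided by the product of reads and TMM factor, within a relative difference of 2.4e-08. The values are therefore CPM with TMM factors. Both tables also hold the authors' signed fold, treated here as a score, and the authors' adjusted p-value, per the file headers. The 10 columns of endometrium values per library match no label and were not used.

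The test was limma 3.58.1 (trend, R 4.3.3) on log2(value + 1) over the 229 rows with a mean of at least 10, with Benjamini-Hochberg adjustment at 0.05. A log2(value + 1) difference of low rows depends on the pseudocount. For both members it was larger in size than the edgeR and DESeq2 estimates (-2.49 against -1.84 and -1.91 for miR-365, -1.58 against -1.37 and -1.36 for miR-193). edgeR 4.0.16 and DESeq2 1.42.0 were run on recovered reads as alternatives. The fit was tested on simulated data. Exact permutation tests were 2-sided. Rows named in the text are all members, rows within 20 locus numbers, the 5 most alike in pattern (Pearson's r, identical rows merged), up to 3 rows per list by mean value, and rows the authors called. Rows of the cell marker lists are named too, and P01 was singled out among their libraries for its miR-193 value. The row miR-99a was named after its values were seen. The rows 2_16583 and miR-133 also lie outside these rules and were picked singly, with their values known. Their lack of overlap between treatments is therefore not evidence about the lists they stand beside. In the vesicle table a column's first letter gives the treatment, and no column gives the ewe.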

Additional observations from a re-analysis of the deposited data

How the results depend on the processing

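The log2 difference of the miR-365 signal was below 0 in all 19 alternatives run, from -2.88 to -1.24, with adjusted p-values from 0.166 to 0.482, and that of the miR-193 row in all 19, from -2.28 to -0.97, with adjusted p-values from 0.321 to 1, so neither passed in any of them. With 1 library left out, the ranges were -2.88 to -1.56 and -2.28 to -1.05. A pseudocount of 10 gave -1.40 and -0.97, and edgeR's exact test without a filter, added after seeing the data, gave -1.78 and -1.34 (unadjusted p of 0.00507 and 0.190). With the minimum mean raised to 50 no member is left. The number of rows called (1) was 6 with edgeR's quasi-likelihood test without a filter, 4 with DESeq2, and 0 to 2 with 1 library left out, and no member was among them. Without P01, P04 and R04, also added later, the 1 row called was 26_23579 with the miR-486 seed, in place of miR-99a. The alternatives planned for endometrium were not run, since its columns match no label. No paired analysis was possible because the treatments were given to different ewes and the columns carry no shared number. Depth limits all of these values: 1 read was worth up to 10.4 normalized CPM, close to the P4+RU486 mean of miR-365.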
